A study of Mus musculus with 18 samples.

Results

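The neighbours of Abcb1 are the 9 protein-coding genes that share a stretch of mouse chromosome 5 with the drug efflux genes Abcb1a, Abcb1b and Abcb4, and they were followed here in parental and drug-resistant mammary carcinoma cells. Their symbols are Steap4, Sri, Adam22, Dbf4, Slc25a40, Rundc3b, Crot, Tmem243 and Dmtf1, and they are 9 of the 24421 symbols counted. They were selected on position, as the genes other than ABC transporters from the start of Steap4 to about 9.2 Mb in the mouse genome build GRCm38, and the stretch itself was chosen on the higher levels of these genes in the resistant cells of the same libraries. Differences between resistant and parental cells are therefore given as a description, without a test. The count table held 12 symbols in the stretch, the 9 neighbours and the 3 ABC genes, so no other listed gene was passed over.

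RNA was sequenced from 4T1, a mouse mammary carcinoma line with a wild-type genotype of BALB/cfC3H strain, and from 4T1R1 and 4T1R2, cell populations and not single clones, each derived from 4T1 by repeated rounds of 17-DMAG. 17-DMAG inhibits HSP90, a chaperone that folds many kinases and receptors. Each of the 3 populations was taken untreated and after 1.5 µM 17-DMAG, which gave 6 groups of 3 libraries. The sample records give 48 h of treatment and the series text gives 2 h, so the length of the response measured is uncertain. For the selection, the records give 3 rounds of 1.5 µM for 48 h and the series text gives 1 µg/ml for 24 h.

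The counts of replicates 1 and 2 in the 17-DMAG group of 4T1 were closer than those of any other pair, with a chi-square per gene of 1.1 against 2.04 to 2.22 in the 17 other replicate pairs (genes with 4 to 30 counts). They differed by less than the sampling noise of separate libraries, were averaged and counted as 1 sample, so n = 2 for that group and n = 3 for the others. The series text calls the libraries of a group biological triplicates and does not say whether they came from separate cultures, so p-values measure the spread between these libraries. Totals per library ran from 23354461 to 55094630 counts, and the ribosomal RNA precursor Rn45s took 9.54% to 15.6% of them. Names of the 4T1R1 libraries form a run of their own, whereas 4T1 and 4T1R2 share one, so for 4T1R1 the run and the population cannot be told apart. Of 9 epithelial markers, 9 were at 1 CPM (counts scaled to a common library size) or more in each group. Their summed level was 2531 to 2564 CPM in untreated 4T1, 1695 to 1773 in untreated 4T1R1 and 1961 to 2000 in untreated 4T1R2. Krt8, Krt18, Krt19, Krt7, Epcam, Cldn3 and Cldn4 were lower in every untreated library of 4T1R1 and 4T1R2 than in untreated 4T1. Cldn4 was at 29.8, 30.5 and 31.7 CPM in untreated 4T1, 7.93, 5.66 and 6.27 in 4T1R1, and 9.11, 8.51 and 10.1 in 4T1R2. Krt14 was higher in both resistant populations, whereas Cdh1 was higher in untreated 4T1R2 and overlapped untreated 4T1 in 4T1R1. Of 6 fibroblast markers only Pdgfra and of 6 leukocyte markers only Cd68 reached 1 CPM, the summed levels of both lists staying between 4.35 and 33.7 CPM. Lum was at 0 throughout, Cd3e, Adgre1, Col3a1 and Dcn were at or below 0.180 CPM, and 4 endothelial markers summed to 0.569 CPM at most. The part of these marker levels in the results was not tested. In such bulk RNA, fewer cells of a type and less RNA per cell cannot be told apart.

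Abcb1a and Abcb1b encode the mouse P-glycoproteins, ATP-driven pumps of the plasma membrane that move many unrelated drugs out of the cell, and Abcb4 encodes a relative that moves phosphatidylcholine into bile. The genes around them have no known shared function. They include a regulator of the start of DNA replication (Dbf4), a calcium-binding protein first described in multidrug-resistant cells (Sri, sorcin), carriers and enzymes of mitochondria and peroxisomes (Slc25a40, Crot) and a metalloreductase (Steap4).

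In the GENCODE vM21 annotation of GRCm38 the order along chromosome 5, from low to high coordinates, was Steap4 (7960457 to 7982213, plus strand), Sri (8046078 to 8069379, plus), Adam22 (8072352 to 8368160, minus), Dbf4 (8396973 to 8422716, minus), Slc25a40 (8422850 to 8454797, plus) and Rundc3b (8490334 to 8622952, minus). Then came Abcb1a (8660077 to 8748575), Abcb1b (8798147 to 8866315) and Abcb4 (8893717 to 8959231), all on the plus strand. On the far side lay Crot (8966033 to 8997324, minus), Tmem243 (9100668 to 9160986, plus) and Dmtf1 (9118801 to 9161776, minus). Bodies of Tmem243 and Dmtf1 overlap on opposite strands over 42186 bases, of which 404 are exonic in both. The use of strand in counting is not given in the sources used here, so reads of these 404 bases cannot be assigned to either gene with certainty. Crot shares 166 exonic bases with Gm37153 and 39 with Gm27941, which the count table does not list.

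Promoter sequences are shown for 5 of the genes that the results turn on. All sequences are from RefSeq (GRCm38.p6), are written 5′ to 3′ along the strand named, and carry in capitals every match, on either strand, to a heat shock element (GAANNTTC), an NF-κB site, a CCAAT box (CCAAT), a GC box (GGGCGG) or a TATA box (TATAAA). Dbf4 and Slc25a40 start back to back, and the 121 bases between their RefSeq starts (8422716 and 8422838) are given whole, from chr5:8422717-8422837 on the plus strand. The 250 bases before the start are given for Steap4 (chr5:7960222-7960471, plus), Rundc3b (chr5:8622953-8623202, minus) and Dmtf1 (chr5:9161777-9162026, minus).
Dbf4-Slc25a40: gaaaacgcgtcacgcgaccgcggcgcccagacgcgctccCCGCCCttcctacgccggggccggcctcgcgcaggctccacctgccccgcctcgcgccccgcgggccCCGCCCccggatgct
Steap4: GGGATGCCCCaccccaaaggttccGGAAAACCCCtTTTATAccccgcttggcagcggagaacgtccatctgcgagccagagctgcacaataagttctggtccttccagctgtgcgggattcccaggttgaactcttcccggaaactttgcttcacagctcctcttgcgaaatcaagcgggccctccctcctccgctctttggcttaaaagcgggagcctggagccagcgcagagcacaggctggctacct
Rundc3b: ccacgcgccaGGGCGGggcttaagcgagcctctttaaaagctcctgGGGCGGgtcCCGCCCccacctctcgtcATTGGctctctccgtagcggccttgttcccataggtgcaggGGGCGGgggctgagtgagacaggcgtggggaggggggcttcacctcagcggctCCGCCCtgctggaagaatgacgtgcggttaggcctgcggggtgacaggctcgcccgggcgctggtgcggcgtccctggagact
Dmtf1: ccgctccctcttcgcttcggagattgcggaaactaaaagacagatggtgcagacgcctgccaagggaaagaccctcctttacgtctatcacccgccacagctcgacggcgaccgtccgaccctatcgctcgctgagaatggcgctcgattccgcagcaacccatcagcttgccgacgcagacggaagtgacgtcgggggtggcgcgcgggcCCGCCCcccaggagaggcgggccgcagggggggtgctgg

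Over windows of 300 bases (250 before and 50 after each start), a GC box was in 6 of the 9 neighbours and in 35.7% of the 32851 promoters listed. A CCAAT box was in 3 of 9 (Rundc3b, Crot and Tmem243), against 37.4% of all promoters. The NF-κB site and the TATA box were each in Steap4 alone, against 8.46% and 13.6% of all promoters. None of the 9 windows held a heat shock element, which 7.86% of all promoters did. These matches describe letters in a window and nothing about binding.

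Among the neighbours that act on the cell cycle, Dbf4 encodes the regulatory subunit of the Cdc7 kinase, which fires replication origins. Dbf4 was at 152, 150.0 and 153 CPM in untreated 4T1 and at 177 and 173 CPM in 17-DMAG-treated 4T1. In 4T1R1 it was at 749, 717 and 749 CPM untreated and at 808, 799 and 781 CPM treated. In 4T1R2 it was at 2321, 2289.5 and 2298 CPM untreated and at 2347, 2378 and 2260.1 CPM treated. The 3 populations thus occupied separate ranges, each several times above the one before. The fitted log2 difference from untreated 4T1 was 2.28 (SE 0.026) in untreated 4T1R1 and 3.92 (SE 0.028) in untreated 4T1R2, which is 4.87-fold and 15.2-fold. Levels here are CPM of the library size after TMM scaling, and fold changes are from the fit of all groups.

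Dmtf1 encodes a Myb-like transcription factor that binds D cyclins and activates Arf. Its levels were 72.5, 67.3 and 66.1 CPM in untreated 4T1 and 63.8 and 60.4 CPM in treated 4T1. They were 166, 171 and 171 CPM in untreated 4T1R1 and 186, 177 and 189 CPM in treated 4T1R1. They were 260.2, 272 and 270.5 CPM in untreated 4T1R2 and 278, 291 and 283 CPM in treated 4T1R2. Here too no library of one population reached the range of another, yet the differences from 4T1 were the smallest of the 9 genes. Dmtf1 stood 2.47-fold above untreated 4T1 in 4T1R1 (log2 1.31, SE 0.037) and 3.90-fold in 4T1R2 (log2 1.96, SE 0.037).

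For metabolism, Slc25a40 encodes a carrier of the mitochondrial inner membrane that takes part in glutathione import. Slc25a40 was at 18.5, 16.3 and 17.4 CPM in untreated 4T1 and at 14.1 and 15.2 CPM in treated 4T1. It was at 82.8, 68.4 and 85.4 CPM in untreated 4T1R1 and at 98.9, 95.6 and 99.5 CPM in treated 4T1R1. It was at 229, 234 and 243 CPM in untreated 4T1R2 and at 246, 249 and 229 CPM in treated 4T1R2. Its untreated levels were 4.54-fold (log2 2.18, SE 0.061) and 13.5-fold (log2 3.76, SE 0.059) those of 4T1. These are close to the values of Dbf4, with which it shares the 121 bases printed above. They are also close to those of Sri (4.98-fold and 13.3-fold) and Adam22 (5.23-fold and 13.7-fold). Within untreated 4T1R1 the spread of Slc25a40 was wide, at 78.9 ± 9.15 CPM (SD, n = 3), with replicate 2 the lowest.

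Crot encodes carnitine O-octanoyltransferase, the peroxisomal enzyme that passes medium-chain acyl groups to carnitine. Crot was at 19.1, 18.4 and 17.4 CPM in untreated 4T1 and at 16.5 and 12.3 CPM in treated 4T1. It was at 149.7, 132 and 142 CPM in untreated 4T1R1 and at 137, 132 and 132 CPM in treated 4T1R1. It was at 423, 423 and 427 CPM in untreated 4T1R2 and at 412, 418 and 397 CPM in treated 4T1R2. Crot levels were 7.73-fold (log2 2.95, SE 0.054) those of 4T1 in untreated 4T1R1 and 23.2-fold (log2 4.54, SE 0.053) in untreated 4T1R2.

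Sri encodes sorcin, a small calcium-binding protein of the penta-EF-hand family. Sri was at 52.1, 51.4 and 49.1 CPM in untreated 4T1 and at 49.5 and 46.5 CPM in treated 4T1. It was at 256, 249.9 and 254 CPM in untreated 4T1R1 and at 258, 261 and 244 CPM in treated 4T1R1. It was at 674, 683 and 673 CPM in untreated 4T1R2 and at 680.0, 686 and 660.5 CPM in treated 4T1R2. Treated and untreated libraries of each population overlapped, and the populations did not. Sri was 4.98-fold (log2 2.32, SE 0.034) and 13.3-fold (log2 3.73, SE 0.034) above untreated 4T1.

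Rundc3b encodes a RUN-domain protein that binds the small GTPase Rap2. Rundc3b was at 5.35, 5.56 and 4.82 CPM in untreated 4T1 and at 4.48 and 4.12 CPM in treated 4T1. It was at 50.0, 47.6 and 53.7 CPM in untreated 4T1R1 and at 54.6, 53.9 and 48.8 CPM in treated 4T1R1. It was at 171, 178 and 174 CPM in untreated 4T1R2 and at 169.5, 179 and 163 CPM in treated 4T1R2. Rundc3b, the neighbour next to Abcb1a, was 9.64-fold (log2 3.27, SE 0.070) and 33.3-fold (log2 5.06, SE 0.064) above untreated 4T1.

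Adam22 encodes a member of the ADAM family without protease activity, known as a receptor of LGI proteins in neurons. Adam22 was at 1.91, 2.69 and 2.14 CPM in untreated 4T1 and at 2.46 and 2.02 CPM in treated 4T1. It was at 11.8, 11.7 and 11.7 CPM in untreated 4T1R1 and at 13.6, 11.7 and 14.5 CPM in treated 4T1R1. It was at 28.7, 34.3 and 29.5 CPM in untreated 4T1R2 and at 25.9, 29.7 and 25.1 CPM in treated 4T1R2. Adam22, though a neuronal receptor by its usual role and low in these cells, kept the same order of populations, 5.23-fold (log2 2.39, SE 0.13) and 13.7-fold (log2 3.78, SE 0.12) above untreated 4T1.

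Tmem243 encodes a small membrane protein. Tmem243 was at 3.14, 2.80 and 2.33 CPM in untreated 4T1 and at 2.05 and 1.88 CPM in treated 4T1. It was at 31.6, 33.4 and 32.7 CPM in untreated 4T1R1 and at 28.0, 32.2 and 31.2 CPM in treated 4T1R1. It was at 102, 103 and 93.4 CPM in untreated 4T1R2 and at 86.1, 93.4 and 97.2 CPM in treated 4T1R2. The fold over untreated 4T1, 11.8 (log2 3.56, SE 0.090) in 4T1R1 and 36.2 (log2 5.18, SE 0.082) in 4T1R2, was the highest of the 8 genes with counts in 4T1, while that of Dmtf1, whose body overlaps it, was the lowest.

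Steap4 encodes a metalloreductase that reduces iron and copper. No read of Steap4 was counted in any untreated 4T1 library, and 2 were counted in treated 4T1, both in replicate 2. In 4T1R1 there were 38, 22 and 36 counts untreated (1.20, 0.741 and 1.08 CPM) and 20, 8 and 12 counts treated (0.619, 0.273 and 0.429 CPM). In 4T1R2 there were 40, 29 and 42 counts untreated (1.24, 1.22 and 1.59 CPM) and 42, 41 and 62 counts treated (1.26, 1.15 and 1.90 CPM). Steap4 thus passed the filter on low counts only through the resistant groups. Against a floor of 3 counts in an untreated 4T1 library of mean size, its mean was at least 10.1-fold higher in untreated 4T1R1 and at least 13.6-fold higher in untreated 4T1R2.

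**Figure D1:**
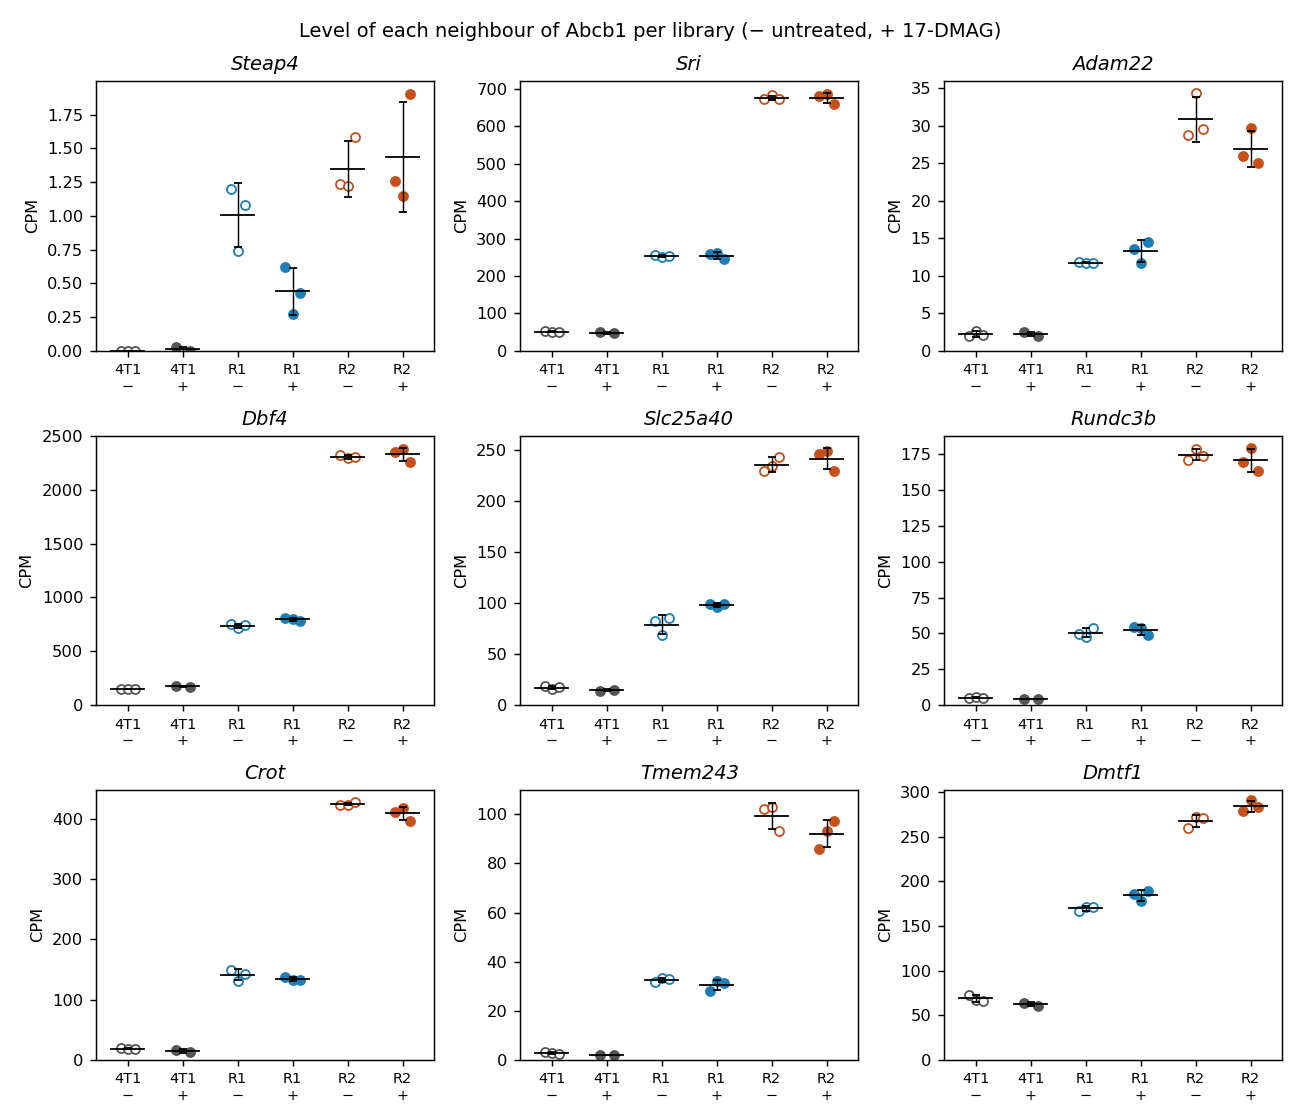
Level of each neighbour in CPM (linear axis from 0, its own scale in each panel) in every library, with untreated libraries as open and 17-DMAG-treated libraries as filled points. Grey is 4T1, blue 4T1R1 and orange 4T1R2, horizontal bars are means and error bars SD (n = 3, and n = 2 for treated 4T1). The 3 populations form separate steps in each gene but Steap4, where 4T1R1 and 4T1R2 lie close together untreated.

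All 9 neighbours passed the filter, and each was higher in every untreated library of 4T1R1, and of 4T1R2, than in every untreated library of 4T1, a separation that 27.7% and 28% of the 13507 genes tested also showed in that direction. In treated libraries the same held for 9 of 9 against 33.9% and 33.5% of all genes. These counts were fixed by how the stretch was chosen, and nothing is read from them. Treated libraries gave differences of like size, from log2 1.56 for Dmtf1 to 3.94 for Tmem243 in 4T1R1 and from 2.19 to 5.54 in 4T1R2, Steap4 aside. The coefficient of variation between libraries of a group stayed at 0.703% to 2.63% for Dbf4 and at 0.791% to 4.4% for Sri, and reached 20.8% for Crot and 17.9% for Adam22. Among untreated libraries the size of the difference varied from gene to gene. Below Abcb1a, the 4 genes Sri, Adam22, Dbf4 and Slc25a40 were within 4.54-fold to 5.23-fold of untreated 4T1 in 4T1R1 and within 13.3-fold to 15.2-fold in 4T1R2. The 3 genes Rundc3b, Crot and Tmem243 were within 7.73-fold to 11.8-fold and 23.2-fold to 36.2-fold. This grouping was made after the values were seen. Abcb1b itself was 6.88-fold (log2 2.78, SE 0.027) and 19.2-fold (log2 4.26, SE 0.028) above untreated 4T1. It went from 111 ± 2.39 CPM in untreated 4T1 to 761 ± 12.7 in 4T1R1 and 2126 ± 28.4 in 4T1R2 (SD, n = 3). Larger differences were fitted for Abcb1a (log2 3.90 and 5.63) and Abcb4 (log2 4.70 and 6.37). Their means in untreated 4T1 were only 0.529 and 0.0899 CPM.

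**Figure D2:**
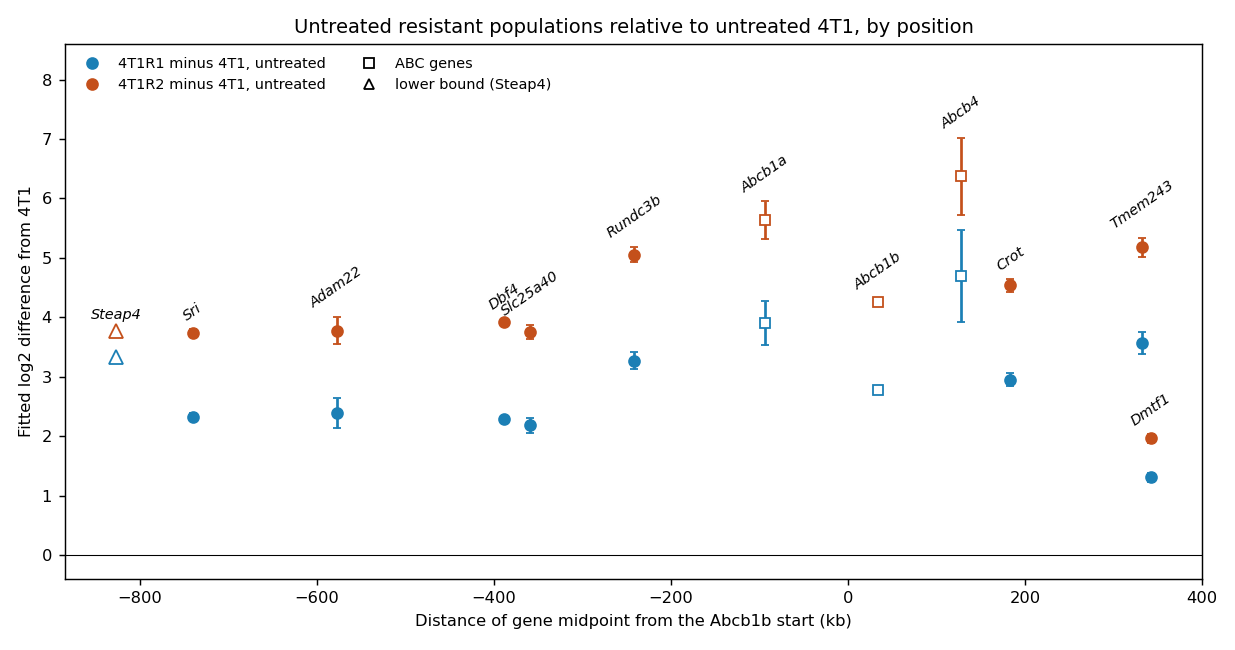
Fitted log2 difference of untreated 4T1R1 (blue) and untreated 4T1R2 (orange) from untreated 4T1 against the distance of each gene's midpoint from the Abcb1b start, in kb. Circles are the neighbours and squares the ABC genes, each with a 95% interval, and triangles are lower bounds for Steap4. Sri, Adam22, Dbf4 and Slc25a40 lie in a narrow band, and Rundc3b, Crot and Tmem243 lie higher. Abcb1a and Abcb4 lie highest, and Dmtf1, at the far end above Abcb1b, lies lowest.

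At the edges of the stretch the counts were as follows. The nearest listed gene below it, Zfp804b, lies 615 kb away and had 0 counts in all libraries of 4T1 and 4T1R1 and 2 in each group of 4T1R2. The nearest gene below that was tested, Steap1, lies 2211 kb away and was at 48.6 ± 0.405 CPM in untreated 4T1, 140.3 ± 4.79 in untreated 4T1R1 and 49.6 ± 1.18 in untreated 4T1R2 (SD, n = 3). It was thus higher in 4T1R1 and near the parental level in 4T1R2. The same side held 5 tested genes within 3 Mb. Each of them was higher in untreated 4T1R1 than in untreated 4T1 without overlap, by 1.08 to 1.75 on the log2 scale, as were 27.7% of all genes. In untreated 4T1R2, 0 of 5 were higher and 3 of 5 lower without overlap, with log2 differences from -0.68 to 0.032. Of all 13507 genes, 3787 were higher and 3939 lower without overlap in that comparison. Above the stretch the nearest gene, 9330182L06Rik, lies 66.1 kb away and had 4 counts over the untreated 4T1 libraries, 242 over those of 4T1R1 and 266 over those of 4T1R2. It was higher in both resistant populations, though it lies outside the limit that defined the neighbours. Like Steap4, it passed the filter on low counts only through the resistant groups, so nothing is read from its difference. Its means in untreated libraries were 0.042, 2.57 and 3.21 CPM in the same order. Of the 10 symbols within 3 Mb above the stretch, the only other that passed the filter was Grm3, a glutamate receptor gene. It was listed at 0 in untreated 4T1 and at 0.335 and 0.841 CPM on average in untreated 4T1R1 and 4T1R2. Grm3 too passed only through the resistant groups.

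Together the 9 neighbours summed to 317 ± 6.30 CPM in untreated 4T1, 1477 ± 39.1 CPM in untreated 4T1R1 and 4213 ± 4.63 CPM in untreated 4T1R2 (SD, n = 3). After 17-DMAG the sums were 323 ± 10.5 (n = 2), 1563 ± 21.9 and 4229 ± 105 CPM. As a share of all counts of a library this was 0.0313% to 0.0323% in untreated 4T1, 0.144% to 0.154% in untreated 4T1R1 and 0.425% to 0.429% in untreated 4T1R2. Of the reads of the 9 genes, Dbf4 took 47.9% in untreated 4T1 and 54.7% in untreated 4T1R2. Dmtf1 took 21.6%, 11.5% and 6.35% in untreated 4T1, 4T1R1 and 4T1R2, and so lost share at each step.

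Levels were compared between genes only per kb of exon, as CPM per kb. The length was the union of all exons of a gene in GENCODE vM21, whereas the study counted reads with a UCSC mm10 annotation. In untreated 4T1 the order was Dbf4 (17.4), Sri (10.5), Dmtf1 (6.22), Crot (3.35), Slc25a40 (2.07), Rundc3b (1.37), Tmem243 (0.403), Adam22 (0.157) and Steap4 (0). In untreated 4T1R1 Crot (25.9) had passed Dmtf1 (15.4), and Rundc3b (13.2) had passed Slc25a40 (9.40). In untreated 4T1R2 the order was Dbf4 (264), Sri (139), Crot (77.8), Rundc3b (45.6), Slc25a40 (28.1), Dmtf1 (24.2), Tmem243 (14.5), Adam22 (2.15) and Steap4 (0.428). Dmtf1 thus moved from the third place to the sixth, and in all 6 groups no library of one gene overlapped those of the next gene in the order. This lack of overlap does not cover an error in the exon lengths, which could change the order within a group.

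The next comparison asked whether the resistant populations differed from each other in these genes. It uses the resistant libraries whose levels the choice of the stretch rested on, so it is given as a description, without p-values, and nothing is read from its counts. In the fit across all genes, 8 of 9 passed the threshold as higher in untreated 4T1R2, as did 19.7% of all genes. For Steap4 the 95% interval of the difference, -0.28 to 1.12 around log2 0.42 (SE 0.34), included 0, although each 4T1R2 library lay above each 4T1R1 library. Dbf4 was 3.12-fold higher (log2 1.64, SE 0.025), Rundc3b 3.45-fold (log2 1.79, SE 0.046) and Sri 2.67-fold (log2 1.42, SE 0.029). The 7 genes other than Dmtf1 and Steap4 lay between 1.39 and 1.79 on the log2 scale. Dmtf1 was only 1.58-fold higher (log2 0.66, SE 0.034), and its 95% interval, 0.59 to 0.73, lay below the lowest bound of the other 7, 1.21.

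In treated libraries 9 of 9 passed as higher in 4T1R2 than in 4T1R1, as did 22.7% of all genes, Steap4 among them, which had passed the filter only through the resistant groups. Steap4 was 3.20-fold higher in treated 4T1R2 (log2 1.68, SE 0.38), from 0.440 ± 0.173 to 1.44 ± 0.409 CPM (SD, n = 3). Adam22 was 2.03-fold higher (log2 1.02, SE 0.088) and Slc25a40 2.46-fold (log2 1.30, SE 0.048), both below their untreated values of 1.39 and 1.58. Dmtf1 had the smallest difference of the 9 in treated libraries, at log2 0.63 (SE 0.034).

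**Figure D3:**
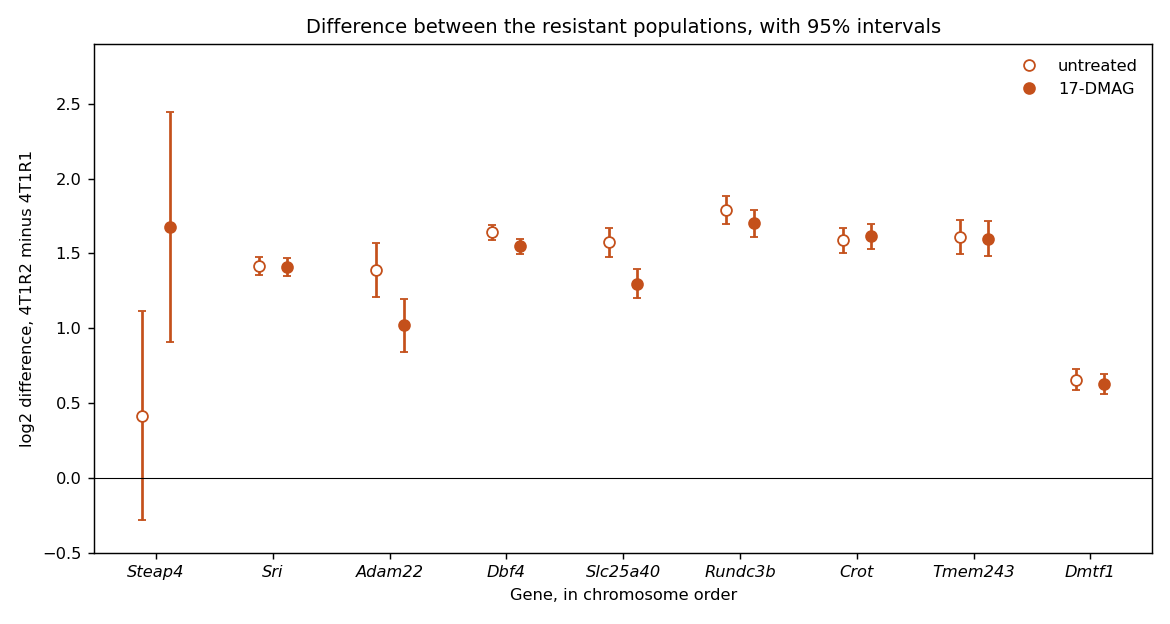
Fitted log2 difference of 4T1R2 minus 4T1R1 for each neighbour in chromosome order, in untreated (open) and 17-DMAG-treated (filled) libraries, with 95% intervals. Dmtf1 lies at 0.66 and 0.63, the intervals of Steap4 are the widest, and the other 7 genes lie between 1.02 and 1.79 in both states.

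The response to 17-DMAG within a population did not enter the choice of the genes and was tested by edgeR's quasi-likelihood test, with Benjamini-Hochberg adjustment over the 13507 genes. In 4T1, 1 of 9 rose and 4 of 9 fell, against 18.4% and 17.9% of all genes. Dbf4 rose from 152 ± 1.73 (n = 3) to 175 ± 3.04 CPM (n = 2), a log2 change of 0.21 (SE 0.030, adjusted p = 2.35e-07). Tmem243 (log2 -0.47, SE 0.17, adjusted p = 0.0229), Crot (log2 -0.32, SE 0.078, adjusted p = 0.000924), Slc25a40 (log2 -0.25, SE 0.084, adjusted p = 0.0159) and Dmtf1 (log2 -0.14, SE 0.044, adjusted p = 0.00896) fell. Treated and untreated libraries did not overlap for any of these 5 genes. Nor did they for Rundc3b, which was not called by edgeR (log2 -0.28, SE 0.12, adjusted p = 0.0615) but was by DESeq2 (adjusted p = 0.0464). Of all 13507 genes, 3902 were higher and 3728 lower without overlap in this comparison, so nothing is read from the separation. Sri (log2 -0.081, adjusted p = 0.133) and Adam22 (log2 0.015, adjusted p = 0.960) were not called, and Steap4 had 0 and 2 counts in the groups compared. Dbf4 and Slc25a40, on either side of the same 121 bases, thus changed in opposite directions in 4T1.

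Without untreated replicate 1, only Dbf4 and Crot were called in 4T1, with log2 changes of -0.21 for Slc25a40, -0.37 for Tmem243 and -0.10 for Dmtf1. Without treated replicate 3, only Dbf4 and Slc25a40 were called, with -0.42 for Tmem243, -0.11 for Dmtf1 and -0.15 for Crot. Crot was thus the one whose change moved by over 1.5 times, and replicate 3 was the lower of its treated samples, at 12.3 against 16.5 CPM. Leaving out replicate 3 leaves 1 treated sample, which is assumed to vary like the other groups. Scaling by total counts alone lowered the median of all genes in this comparison by 0.11 on the log2 scale. Under it 21.6% of all calls were rises, against 50.7% with TMM scaling, and 1 neighbour rose and 6 fell. The rise of Dbf4 was then 0.093 (adjusted p = 0.0278) and the fall of Dmtf1 -0.26, and the calls for Slc25a40, Crot and Tmem243 held.

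In 4T1R1, 3 of 9 rose and 1 of 9 fell after 17-DMAG, against 13.9% and 14.3% of all genes. Slc25a40 rose from 78.9 ± 9.15 to 98.0 ± 2.07 CPM (SD, n = 3), a log2 change of 0.31 (SE 0.050, adjusted p = 5.93e-06). Dmtf1 rose by 0.12 on the log2 scale (SE 0.034, adjusted p = 0.00784) and Dbf4 by 0.11 (SE 0.024, adjusted p = 0.000646). Steap4 fell, from 1.01 ± 0.236 to 0.440 ± 0.173 CPM (log2 -1.17, SE 0.39, adjusted p = 0.0223), with no overlap between the groups. Among all 13507 genes, 2720 were lower without overlap in this comparison. The largest adjusted p of the other 5 was that of Sri, 0.915, at a log2 change of 0.0059.

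Steap4 rests on 8 to 38 counts a library in 4T1R1. Its fall was lost without any 1 of 4 libraries, with log2 changes from -1.15 to -0.93. These were untreated replicates 1 and 3 and treated replicates 2 and 3, and the largest adjusted p, 0.111, came without treated replicate 2. Without treated replicate 3 the rise of Dmtf1 was lost as well (log2 0.099, adjusted p = 0.0584), which left only Dbf4 and Slc25a40 called.

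In 4T1R2, 0 of 9 neighbours were called by edgeR after 17-DMAG, against 6.18% of all genes rising and 4.35% falling. At an unadjusted p under 0.05 there were 3, Adam22 (log2 -0.19, SE 0.082, adjusted p = 0.135), Tmem243 (log2 -0.11, SE 0.052, adjusted p = 0.188) and Dmtf1 (log2 0.087, SE 0.033, adjusted p = 0.0867). DESeq2 also called 0 of 9, with 2 at an unadjusted p under 0.05. For Dbf4, the log2 change was 0.016 with a 95% interval of -0.032 to 0.064, which leaves out the rise of 0.21 seen in 4T1. Treated and untreated libraries did not overlap for Dmtf1, which was higher in each treated one. Nor did they for Crot, which was lower in each treated one, with a log2 change of -0.054 (SE 0.040, adjusted p = 0.445). Among all 13507 genes, 1884 were higher and 1689 lower without overlap in 4T1R2, so this separation is common and nothing is read from it. Steap4 had a log2 change of 0.087 (SE 0.33, adjusted p = 0.914).

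**Figure D4:**
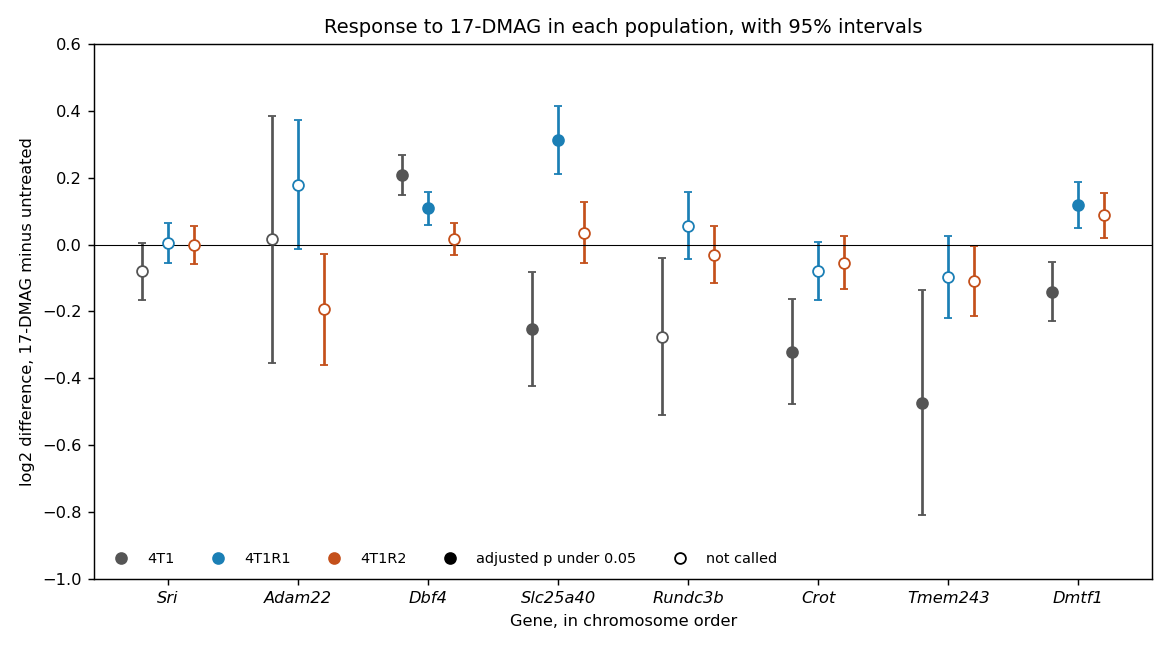
Fitted log2 change after 17-DMAG for 8 neighbours in chromosome order, in 4T1 (grey), 4T1R1 (blue) and 4T1R2 (orange), with 95% intervals and filled points where the adjusted p was under 0.05. Steap4 is left out because untreated 4T1 had 0 counts. Slc25a40 and Dmtf1 lie below 0 in 4T1 and above it in 4T1R1, and the 8 values of 4T1R2 are not called.

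Whether the responses themselves differed was tested by the interaction of population and treatment. Between 4T1R1 and 4T1, 2 of 9 differed, against 18.2% of all genes. Slc25a40 differed by 0.56 on the log2 scale (SE 0.098, adjusted p = 3.48e-05) and Dmtf1 by 0.26 (SE 0.055, adjusted p = 0.000621), each falling in 4T1 and rising in 4T1R1. With total counts alone the difference of Dmtf1 was 0.41. Between 4T1R2 and 4T1, 4 of 9 differed, against 17.8% of all genes. The count between 4T1R1 and 4T1 lies near its background and that between 4T1R2 and 4T1 above it, with no test of either share. At an unadjusted p under 0.05 there were 6 and 5, against 3940 and 3923 of all 13507 genes. Between 4T1R1 and 4T1, Crot (0.24, SE 0.089, adjusted p = 0.0533), Rundc3b (0.33, SE 0.13, adjusted p = 0.0625) and Dbf4 (-0.10, SE 0.038, adjusted p = 0.0638) fell just short of the threshold. No difference between 4T1R1 and 4T1R2 is read from these counts. Steap4 is among the 9 but had too few counts in 4T1 for its response there to mean much. Dbf4 responded less in 4T1R2, by -0.19 (SE 0.038, adjusted p = 0.000199), or -0.12 with total counts alone. The response of Dmtf1 was higher by 0.23 (SE 0.055, adjusted p = 0.00207), that of Slc25a40 by 0.29 (SE 0.096, adjusted p = 0.0299) and that of Crot by 0.27 (SE 0.087, adjusted p = 0.0271). Abcb1b moved like Dmtf1, falling in 4T1 (log2 -0.21, SE 0.031, adjusted p = 5.25e-07), with a response higher by 0.27 in 4T1R1 (adjusted p = 1.03e-06) and by 0.21 in 4T1R2 (adjusted p = 8.01e-05). Abcb1a rose in 4T1 instead (log2 1.40, SE 0.28, adjusted p = 8.32e-05), at low levels, from 0.529 ± 0.229 (n = 3) to 1.45 ± 0.511 CPM (n = 2). Its response differed by -1.27 in 4T1R1 (adjusted p = 0.00193) and by -1.45 in 4T1R2 (adjusted p = 0.000294).

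The calls for Slc25a40 and Crot between 4T1R2 and 4T1 were lost in several settings. Without untreated 4T1 replicate 1, and equally without treated 4T1R2 replicate 2, only Dbf4 and Dmtf1 were called. Slc25a40 was lost under DESeq2 (adjusted p = 0.0772) and without any 1 of 6 libraries, which were untreated 4T1 replicates 1 and 3, treated 4T1 replicate 2, untreated 4T1R2 replicate 1 and treated 4T1R2 replicates 1 and 2. The size of its difference held, at 0.29 under DESeq2 and 0.24 to 0.29 without those libraries. Crot was also lost without treated 4T1 replicate 3, where its difference was 0.099 and the same assumption on the lone treated sample applies. In the fit of 18 libraries kept apart it was 0.20 (adjusted p = 0.0720). Between 4T1R1 and 4T1, leaving out untreated 4T1 replicate 3 raised the count from 2 to 4, by Rundc3b and Crot. In that comparison total counts alone moved the median of all genes by 0.15 on the log2 scale and the share of rises among calls from 50.2% to 89.4%, and 6 neighbours were then called. With it the median of all genes moved by 0.18 between treated 4T1R1 and treated 4T1.

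Relatives of the neighbours coded elsewhere in the genome gave a background, as paralogues and partners of 8 of the 9 genes, 51 in all, of which 44 were tested. Steap1 and Steap2 are among them and also lie near the stretch. In the difference of untreated 4T1R1 from 4T1 the median of the relatives was 0.083 on the log2 scale, with 15 of 44 higher and 16 lower without overlap. In that of untreated 4T1R2 from 4T1 the median was -0.013, again with 15 higher and 16 lower. Of all 13507 genes, 3742 were higher and 3889 lower without overlap in 4T1R1, and 3787 and 3939 in 4T1R2. The medians of the neighbours were 2.39 and 3.92, or 2.39 and 3.78 with Steap4 at its lower bound, and those of all genes 0.0075 and 0.0068. High medians of the neighbours were fixed by how the stretch was chosen, so nothing is read from this gap. After 17-DMAG, 12 of the 44 rose and 14 fell in 4T1, 8 rose and 15 fell in 4T1R1, and 5 rose and 8 fell in 4T1R2. Of all genes, 18.4% rose and 17.9% fell in 4T1, 13.9% and 14.3% in 4T1R1, and 6.18% and 4.35% in 4T1R2.

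The relatives of Dbf4 are its kinase Cdc7, the 6 subunits Mcm2 to Mcm7 of the replicative helicase, and Cdc45, Ticrr and Mcm10, which act in starting it. In 4T1, 9 of 10 fell after 17-DMAG and none rose, against 17.9% of all genes falling, among them Mcm3 (log2 -0.52, SE 0.035, adjusted p = 8.3e-16), a helicase subunit, and Cdc45 (log2 -0.51, SE 0.056, adjusted p = 8.04e-10), its partner at the fork. Dbf4 itself rose in the same libraries. In 4T1R1, 7 of 10 fell, against 14.3% of all genes, and in 4T1R2, 5 of 10, against 4.35%. With total counts alone the falls were 10, 5 and 6 of 10.

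Among the relatives of Dmtf1, Cdkn1a, which encodes the cell-cycle inhibitor p21, fell in 4T1 (log2 -1.03, SE 0.12, adjusted p = 4.27e-09), in 4T1R1 (log2 -0.52, adjusted p = 0.000133) and in 4T1R2 (log2 -0.56, adjusted p = 0.000116). Ccnd2, which encodes a D cyclin, rose in 4T1 (log2 0.51, SE 0.031, adjusted p = 2.75e-17). Cdkn2a, which encodes Arf, was too low to be tested. Among the relatives of Crot, Cpt1a, which encodes the mitochondrial carnitine palmitoyltransferase, fell in 4T1 (log2 -0.98, SE 0.060, adjusted p = 3.77e-17), in 4T1R1 (log2 -0.57, SE 0.046, adjusted p = 6.9e-13) and in 4T1R2 (log2 -0.46, SE 0.044, adjusted p = 3.03e-10). Crot fell with it in 4T1 and was not called in 4T1R1 (log2 -0.081, adjusted p = 0.166).

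The genes outside the 9 most like each neighbour over the 17 samples of the fit were found by Pearson's r of log2 CPM, as a description, among genes with a mean of at least 1 CPM and with the other neighbours left out. The samples share their libraries and fall into 3 populations with separate levels, which carry most of each r. For 7 of the 9 the most similar of these genes was Abcb1b, with r from 0.995 for Adam22 to 0.999 for Rundc3b. For Sri, Slc25a40, Rundc3b, Crot and Dmtf1 the next was Fam213a on chromosome 14 (r = 0.988 to 0.998), for Adam22 it was Pvt1 on chromosome 15 (r = 0.988), and for Tmem243 Hsd17b11, elsewhere on chromosome 5 (r = 0.989). Of the same genes, Dbf4 was most like Fam213a (r = 0.998) and Klk8 on chromosome 7 (r = 0.9935). Steap4 was most like Cxcl16 on chromosome 11 (r = 0.984) and Magi1 on chromosome 6 (r = 0.980). Over the 36 pairs of neighbours r ran from 0.945 to 0.999, and from 0.985 over the 28 pairs without Steap4.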

How the data were processed

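Libraries were made by the authors from ribosomal-RNA-depleted total RNA with a stranded dUTP kit. Per the submitters' processing notes and the study's methods, reads were demultiplexed with bcl2fastq 2.20, aligned to the mouse genome (mm10) with STAR and counted with featureCounts of Subread 1.6.2. The STAR version, the strand setting and the treatment of multi-mapping reads are not given in the sources used here. The deposited values were raw counts per gene symbol, and 65.6% to 70.8% of the values from 1 to 12 were even, as when both ends of a fragment are counted. Of 24421 symbols, 23376 matched GENCODE vM21 and 18785 had a count. Depth was 23354461 to 55094630 counts per library, and a gene with 0 counts in a library was taken only to lie under a floor of 3 counts. This floor is meant for counting error only. It covers that error less fully where both ends of a fragment are counted, since 3 counts are then fewer than 3 fragments.

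From these counts, 13507 genes passed filterByExpr and were fitted with TMM scaling and the quasi-likelihood test of edgeR 4.0.16 (R 4.3.3), a mean per group over 17 samples and the averaged pair as 1 of them, with Benjamini-Hochberg adjustment over all genes at a threshold of 0.05. Intervals are 95% intervals of the fitted log2 difference. All 9 genes passed the filter. DESeq2 1.42.0, other scalings, filters and sets of libraries, a replicate block and leaving out each library were alternatives. The fit was tested on simulated counts. The members, their relatives and the marker lists were chosen with earlier results of these data known. Every neighbour is named, with the relatives past the threshold by at least 0.5 on the log2 scale, the genes tested nearest to the stretch and the pair of genes outside the 9 most like each neighbour by Pearson's r. Values between 4T1R2 and 4T1R1 come from the same fit and are given without p-values, since the choice rested on these libraries. Same-numbered libraries deviated together in 0 of 45 pairs (r from -0.0516 to 0.0496), so replicate numbers did not pair the libraries. Promoters were read from a RefSeq table (GRCm38.p6), in which all 9 genes matched.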

Additional observations from a re-analysis of the deposited data

Results flagged for a closer look

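Responses to 17-DMAG that differed between populations by the interaction test of edgeR, with adjustment over all genes, were those of 4 neighbours. Slc25a40 differed by 0.56 on the log2 scale between 4T1R1 and 4T1 and by 0.29 between 4T1R2 and 4T1. Dmtf1 differed by 0.26 and 0.23 in the same comparisons. Dbf4 differed by -0.19 and Crot by 0.27 between 4T1R2 and 4T1. Between 4T1R1 and 4T1 the same genes were not called, with differences of the same sign. These were -0.10 for Dbf4 (adjusted p = 0.0638) and 0.24 for Crot (adjusted p = 0.0533), so neither is given as particular to 4T1R2. The 17-DMAG-treated 4T1 group, with n = 2, enters all of these values.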

How the results depend on the processing

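Depth limits Steap4 most, with 62 counts a library or fewer, then Tmem243, Adam22 and Rundc3b in 4T1, and n = 2 in treated 4T1 limits every value that uses it. Leaving out 1 library at a time moved the number of neighbours called after 17-DMAG between 2 and 6 in 4T1 and between 2 and 5 in 4T1R1, and the number whose response differed from 4T1 between 2 and 4 for 4T1R1 and for 4T1R2. In 4T1R2 the count of 0 became 1 with total counts alone (Tmem243) and 1 with only the groups compared (Dmtf1). For 4T1R1 against 4T1 the 2 differing responses became 6 with total counts alone, 4 with at least 10 counts in every library and 4 with the 18 libraries kept apart. Replicate numbers did not pair the libraries. A replicate block with the 18 libraries kept apart also gave 4 differing responses for 4T1R1, and 3 in place of 4 for 4T1R2, where Crot was lost (0.20, adjusted p = 0.0663), as it was without the block. It called 6, 4 and 0 neighbours after 17-DMAG in 4T1, 4T1R1 and 4T1R2. Between 4T1R2 and 4T1R1 it left 8 (untreated) and 9 (treated) past the threshold, and here too nothing is read from those counts. The cause of these moves was not tested.

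The median log2 difference of the neighbours from 4T1 moved as follows. In untreated 4T1R1 it was 2.41 with total counts alone, 2.36 with at least 10 counts in every library, 2.40 with only the groups compared, and 2.34 to 2.53 leaving out 1 library. In untreated 4T1R2 it was 3.94 with total counts alone and 3.86 with at least 10 counts. In treated 4T1R1 it was 2.92 with total counts alone. In treated 4T1R2 it was 4.14 with total counts alone, 3.94 with at least 10 counts, and 4.02 to 4.11 leaving out 1 library. With total counts alone the share of rises among all calls moved from 49.2% to 64.2% after 17-DMAG in 4T1R1, from 58.7% to 24.2% in 4T1R2, from 54.1% to 76.8% for the response of 4T1R2 against 4T1 and from 51.6% to 29.3% between treated 4T1R2 and treated 4T1R1. Changes of sign were met in values that were not called. With total counts alone these were the 17-DMAG changes of Adam22 in 4T1 (-0.10) and of Dbf4 (-0.030) and Slc25a40 (-0.010) in 4T1R2, and the response of Dbf4 in 4T1R1 against 4T1 (0.049). Sri in 4T1R2 was 0.0026 with no filter and 0.00096 without Rn45s. Leaving out 1 library gave -0.087 to 0.16 for Adam22 in 4T1, -0.013 to 0.034 for Sri in 4T1R1, -0.014 to 0.013 for Sri, -0.067 to 0.00013 for Rundc3b and -0.17 to 0.23 for Steap4 in 4T1R2, and -2.81 to 0.087 for the response of Steap4 in 4T1R2 against 4T1.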
